A study of Mus musculus with 4 samples.

Results

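Imprinted genes are expressed mainly or only from the copy inherited from one parent. The 32 imprinted genes described here were taken by symbol from a fixed list and all 32 were found among the 24015 genes of the count files, with 11 expressed from the maternal copy, 20 from the paternal copy and Gnas from a locus that makes transcripts of both kinds. Of these, 31 passed the filter on low counts that left 14259 genes for testing, and Snrpn did not. The list was applied without regard to any measured value, but it was drawn up with earlier results of these data known. The parental class of each gene is general knowledge of the mouse, since counts per gene do not tell the parental copies apart. Grb10, placed with the maternal genes, is expressed from the paternal copy in neurons.

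RNA was sequenced from day 7 mouse embryoid bodies, balls of differentiating embryonic stem cells grown in suspension, in 2 Control and 2 Trim33-deficient libraries. Trim33 encodes a chromatin-binding ubiquitin ligase that works with SMAD proteins. The stem cell lines, at passages 8 to 10, were derived from outbred mouse embryos homozygous for a floxed Trim33 allele that also carried UbcCreERT2, a Cre recombinase driven by the ubiquitin C promoter and active only with tamoxifen. They had been kept without feeder cells in LIF and 2i, a pair of kinase inhibitors. On day 4, 4OH-tamoxifen was added to induce the deficiency. The genotype of the Control libraries is labelled wild type, and the labels settle neither whether those cells carried the floxed allele and Cre nor whether they received tamoxifen. Replicates are described as independent pairs, without a statement that they came from separate lines, and the p-values below reflect only how far these 4 libraries spread, which may be technical.

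Imprints are laid down as DNA methylation in egg or sperm and are kept through the genome-wide demethylation of the early embryo. In mice the KRAB zinc finger protein ZFP57 recognises methylated TGCCGC elements in imprinting control regions and recruits TRIM28, a relative of Trim33, which holds the methylated copy silent. Many imprinted genes lie in clusters where one control region governs genes of opposite parental class, and maternally and paternally expressed genes are classically known for restraining and promoting fetal and placental growth respectively. Stem cells in culture can lose imprints, and the cells of an embryoid body differ in which imprinted genes they use.

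The Trim33 gene was measured at 1203 and 1117 counts in the Control libraries and at 608 and 495 counts in the Trim33-deficient libraries, or 101 ± 11.4 and 43.1 ± 1.11 CPM, TMM-normalised read counts scaled to a common library size, (SD, n = 2 in each group). Its log2 fold change was −1.23 (SE 0.13), with an adjusted p of 0.219 in edgeR's quasi-likelihood test and 1.78e-06 in DESeq2. Libraries held 10422738 to 13808837 counts in genes, and their log2 CPM correlated at 0.932 to 0.978. Control replicate 1 stood apart in its mesenchyme and neural markers, and Trim33-deficient replicate 1 in its cardiac markers. The summed CPM of 7 mesenchyme and smooth muscle markers was 1190 in Control replicate 1, 6320 in Control replicate 2, 3870 in Trim33-deficient replicate 1 and 10200 in Trim33-deficient replicate 2, and 7 of 7 were lowest in Control replicate 1. Neural markers summed to 637 CPM there and to 251 to 317 elsewhere. Cardiac markers summed to 79.4 and 233 CPM in Control replicates 1 and 2, and to 735 and 129 CPM in Trim33-deficient replicates 1 and 2. Visceral endoderm markers, by contrast, separated the groups, at 904 and 968 CPM in Control and 86.0 and 74.7 CPM in Trim33-deficient bodies. Skeletal muscle markers stayed at or below 0.309 CPM. In bulk RNA, fewer cells of a type and less RNA per cell cannot be told apart.

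RefSeq promoter windows, from 250 bases before to 50 bases after a transcription start on GRCm38.p6, were found for 27 of the 32 genes, 43 windows in all, some of which overlap. H19, Cdkn1c, Peg10, Sgce and Impact had none. The 5 windows below are shown because the results turn on their genes: Igf2r had the smallest p, Peg3 shares its start region with Usp29, Meg3 heads a run of transcripts that varied together, Plagl1 varied over the widest range among the 9 genes of highest level, and Mest carries a pair of the elements. Sequences run 5′ to 3′ on the gene's strand, and capitals mark TGCCGC on either strand, so that a match on the other strand reads GCGGCA.
Igf2r, chr17:12769657-12769956, minus strand: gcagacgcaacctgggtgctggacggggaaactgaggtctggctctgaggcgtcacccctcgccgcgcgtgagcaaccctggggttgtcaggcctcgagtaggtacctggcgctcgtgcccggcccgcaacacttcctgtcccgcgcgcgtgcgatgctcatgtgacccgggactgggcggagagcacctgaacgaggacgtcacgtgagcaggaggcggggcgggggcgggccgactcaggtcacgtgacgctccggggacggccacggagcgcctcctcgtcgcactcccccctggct
Peg3, chr7:6730370-6730669, minus strand: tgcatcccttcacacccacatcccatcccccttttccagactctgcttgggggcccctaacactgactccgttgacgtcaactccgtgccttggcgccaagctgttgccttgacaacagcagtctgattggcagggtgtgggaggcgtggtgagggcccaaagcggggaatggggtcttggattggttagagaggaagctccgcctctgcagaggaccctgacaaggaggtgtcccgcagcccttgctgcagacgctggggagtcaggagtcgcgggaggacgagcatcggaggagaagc
Meg3, chr12:109540746-109541045, plus strand: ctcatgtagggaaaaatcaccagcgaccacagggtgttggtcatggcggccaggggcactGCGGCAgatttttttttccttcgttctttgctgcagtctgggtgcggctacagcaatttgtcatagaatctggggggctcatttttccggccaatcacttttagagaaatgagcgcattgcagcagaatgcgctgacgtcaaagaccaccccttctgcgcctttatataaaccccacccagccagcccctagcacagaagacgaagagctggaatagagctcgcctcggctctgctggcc
Plagl1, chr10:13090582-13090881, plus strand: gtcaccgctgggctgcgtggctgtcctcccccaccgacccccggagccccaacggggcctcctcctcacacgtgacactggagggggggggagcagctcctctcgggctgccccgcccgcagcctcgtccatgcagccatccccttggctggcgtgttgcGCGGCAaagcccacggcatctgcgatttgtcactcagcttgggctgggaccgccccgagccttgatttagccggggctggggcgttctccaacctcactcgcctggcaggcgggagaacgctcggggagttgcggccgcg
Mest, chr6:30737800-30738099, plus strand: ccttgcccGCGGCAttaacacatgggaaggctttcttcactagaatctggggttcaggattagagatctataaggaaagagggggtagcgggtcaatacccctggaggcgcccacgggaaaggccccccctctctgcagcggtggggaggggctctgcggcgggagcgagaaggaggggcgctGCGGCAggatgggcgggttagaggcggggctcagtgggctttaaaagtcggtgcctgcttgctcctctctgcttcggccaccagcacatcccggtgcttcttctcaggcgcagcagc

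The TGCCGC element, searched on both strands and with no other motif, occurred in 11 of the 43 windows (25.6%), against 11.6% of all 32851 windows of the same table and length. The windows of imprinted genes held a median of 12 CpG dinucleotides and those of all genes a median of 7. By class, 3 of 11 maternal and 8 of 28 paternal windows had a match. The same Mest matches were counted in 2 windows that overlap almost fully. The printed Mest window had 2 matches, those of Plagl1 and Meg3 had 1 each, and those of Igf2r and Peg3 had none although they held 34 and 13 CpG. Among windows not printed, a Zdbf2 window had 3 matches and the Nap1l5 window had 2. Such matches describe the letters of a window and not a bound site, and control regions that lie away from a start were not searched.

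Levels between genes are compared as CPM per kilobase of exon, using exon lengths of the GENCODE annotation of GRCm38. The submitters' processing notes name the build mm9, so the exons counted may differ from these, which can shift levels and ranks. H19, a non-coding RNA of 2460 exonic bases at chr7:142575529-142578143, had the highest level of the 32, with a mean of 5200 CPM per kilobase over the 4 libraries. It alone took 1.07% to 1.64% of all counts in genes, while the 32 genes together took 2.59% to 3.85%. Mest, which encodes a protein of the hydrolase fold family, followed at 1020 CPM per kilobase, then Peg10, a retrotransposon-derived gene needed in the placenta, at 637 and Nnat, which encodes the membrane proteolipid neuronatin, at 322. Gnas, the stimulatory G protein alpha subunit locus, reached 188, the amino acid transporter gene Slc38a4 183, Igf2 174, the zinc finger gene Peg3 171 and Plagl1 157. These neighbours in the order, from Gnas to Plagl1, overlapped across libraries. The lowest tested genes were Kcnq1ot1, at 0.136 CPM per kilobase over an annotated length of 93092 bases, and Zim1 at 0.0968. Snrpn, whose product is a spliceosomal protein most abundant in neurons, had 1 and 3 counts in Control and 2 and 0 counts in Trim33-deficient libraries, too few for a fold. Snurf on the same strand overlaps 10% of its annotated exon bases. Whether reads that hit both genes were left unassigned was not tested.

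**Figure D1:**
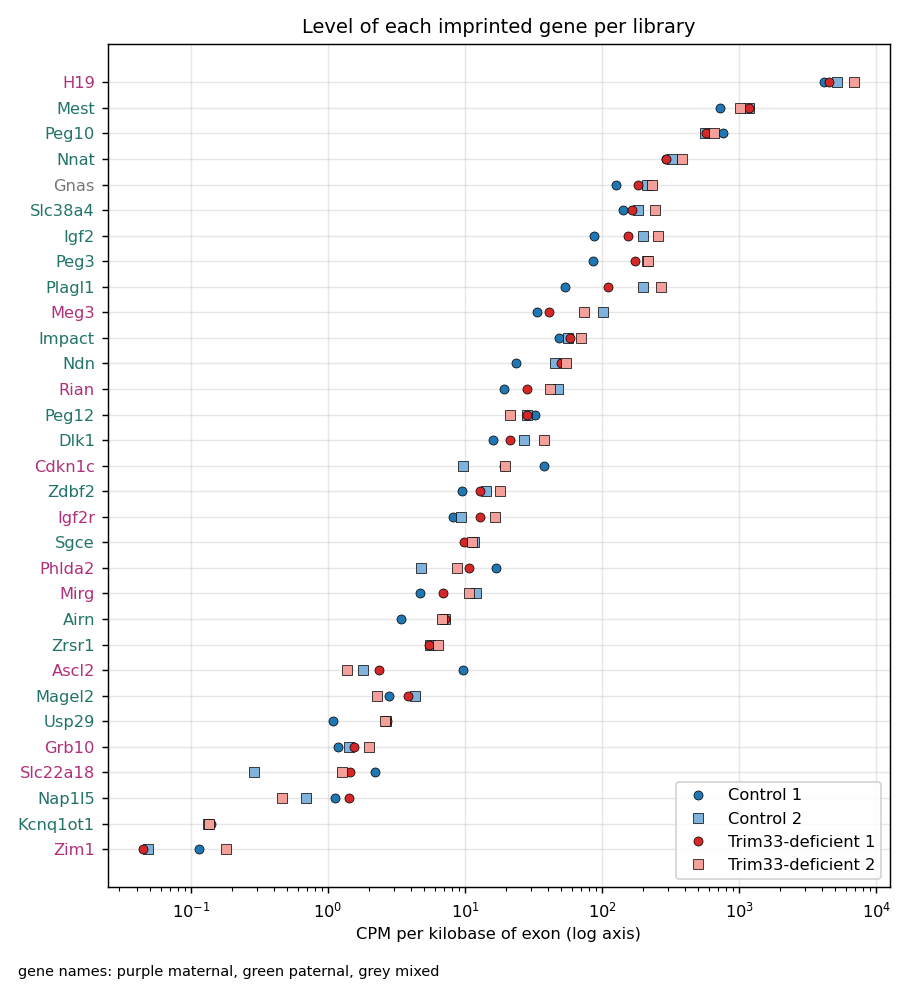
Level of each tested imprinted gene in each of the 4 libraries, as CPM per kilobase of exon on a log axis (blue Control, red Trim33-deficient, circles replicate 1, squares replicate 2). H19 lies at the top with 4180 to 6890, and for most genes the Control circle lies to the left of the other symbols.

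No imprinted gene passed the threshold of an adjusted p under 0.05 between Trim33-deficient and Control bodies, either in edgeR's quasi-likelihood test, which called 2 genes in all (0.0140% of those tested), or in DESeq2, which called 141 (0.989%). The lowest adjusted p of the 31 was 0.523 in edgeR and 0.0821 in DESeq2, both for Igf2r. The 84 genes of the authors' deposited table of differentially expressed genes include none of the 32. At an unadjusted edgeR p under 0.05, 1 of the 31 was higher, against 3.06% of all genes tested, and none was lower, against 4.78%. With the replicate number as a block, edgeR again called none of the 31. DESeq2 with that block called 187 of 14259 genes, of which 1 was among the 31. This was Plagl1, with a log2 fold change of 0.75 and an adjusted p of 0.0380.

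Most of the log2 fold changes nevertheless lay on the positive side. Of the 31 tested genes, 23 had a log2 fold change above 0, against 49.8% of all genes, and the median was 0.21, against −0.0014 over all genes. The count above 0 was 20 without Control replicate 1 and 17 without Trim33-deficient replicate 2 in edgeR, and the median was then 0.05 and 0.03. The groups separated fully in 5 genes. Igf2r, Grb10, Ndn and Impact were higher in both Trim33-deficient libraries than in both Control libraries, a pattern met by 19.3% of all genes, and Sgce was lower in both, a pattern met by 21.4%. Both counts lie below the shares of all genes. Within pairs taken by replicate number, 14 genes were higher in both pairs (30.3% of all genes) and 3 were lower in both (29.8%), while the other 14 went opposite ways in the 2 pairs.

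**Figure D2:**
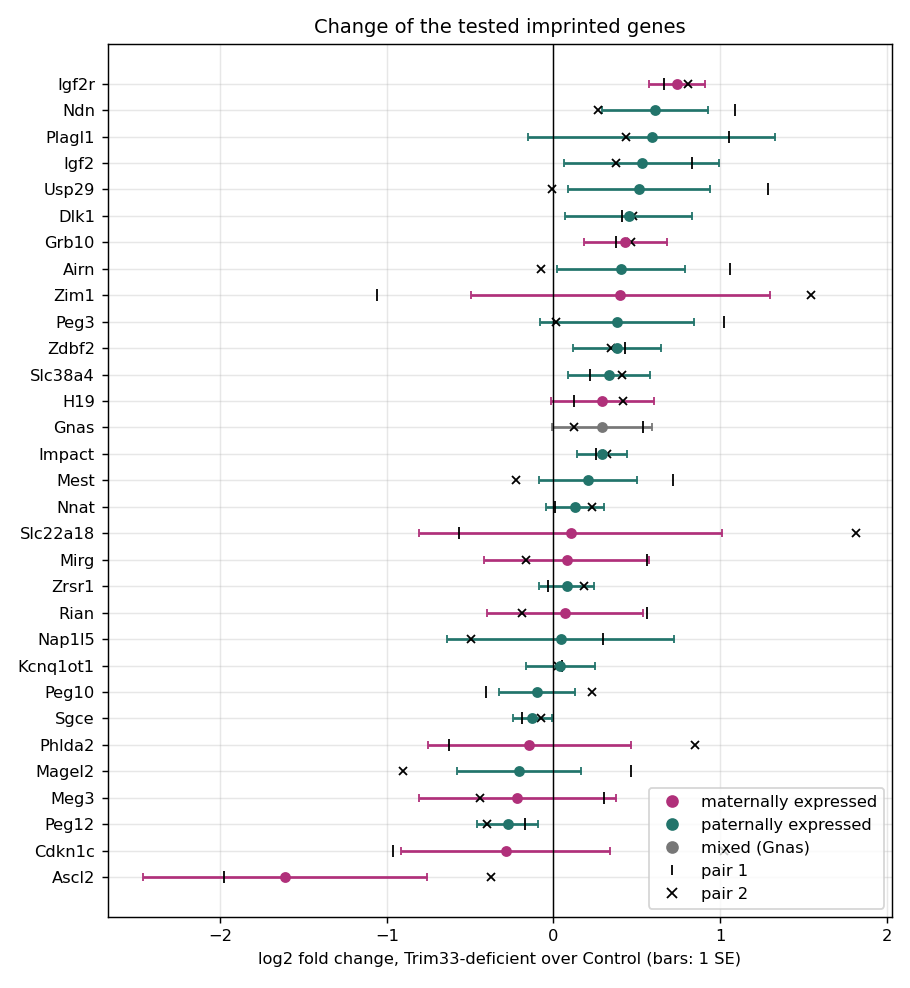
Log2 fold change of each tested imprinted gene, Trim33-deficient over Control, with 1 SE (purple maternal, green paternal, grey Gnas), and the differences within pair 1 (ticks) and pair 2 (crosses). Igf2r, at 0.74, lies farthest from 0 in units of its SE, and several genes, Cdkn1c among them, have the 2 pairs on opposite sides.

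The log2 fold changes of maternally and paternally expressed genes overlapped. The 11 maternal genes had 7 log2 fold changes above 0 and 4 below, with a median of 0.08, and the 19 tested paternal genes had 15 above and 4 below, with a median of 0.29. The order of the medians depended on the pair: in pair 1 the maternal median was 0.12 and the paternal 0.41, and in pair 2 they were 0.47 and 0.18. Of the paternal genes 10 were higher in both pairs and 2 lower, and of the maternal genes 3 were higher in both and 1 lower. The difference between the classes was not tested.

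Igf2r encodes the cation-independent mannose 6-phosphate receptor, which carries IGF2 to the lysosome for degradation, and is expressed from the maternal copy. It lies at chr17:12682406-12769664 and measured 75.7 and 87.5 CPM in the Control libraries and 120 and 153 CPM in the Trim33-deficient libraries. Both Trim33-deficient values lay above both Control values, and this was the highest log2 fold change of the 31 genes, 0.74 (SE 0.17). In mean CPM it rests on 81.6 ± 8.32 in Control and 137 ± 23.3 in Trim33-deficient bodies (SD, n = 2), a ratio of 1.67. The test gave an unadjusted p of 0.00784 and an adjusted p of 0.523 in edgeR, 0.0821 in DESeq2 and 0.223 in edgeR with the replicate block, so the difference did not pass. Within pairs it was 0.66 and 0.81, and with any 1 library left out it stayed between 0.56 and 0.92. The Igf2r and Airn genes overlap on opposite strands, and their annotated exons share no bases. The strand setting of the counting is not given, and whether Airn reads were counted for Igf2r was not tested.

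Airn is the paternal non-coding RNA that runs antisense through Igf2r and silences it on that copy. It measured 12.2 and 25.7 CPM in Control and 25.6 and 24.4 CPM in Trim33-deficient libraries, so that 3 libraries were alike and Control replicate 1 lay lower. Its log2 fold change was 0.40 (SE 0.38). The ratio of Igf2r to Airn was 6.20 and 3.41 in Control and 4.69 and 6.27 in Trim33-deficient bodies, a log2 difference of 0.24, less than the SD of 0.48 between replicates.

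H19 and Igf2 share enhancers and a control region whose methylation decides between them, with H19 expressed from the maternal and Igf2 from the paternal copy. Igf2, a fetal growth factor, measured 500 and 1133 CPM in Control and 888 and 1468 CPM in Trim33-deficient libraries. H19 measured 10280 and 12700 CPM in Control and 11200 and 16960 CPM in Trim33-deficient libraries. In both genes the groups overlapped, with Control replicate 1 lowest and Trim33-deficient replicate 2 highest, although they are expressed from opposite copies. Their log2 fold changes were 0.53 (SE 0.47) for Igf2 and 0.29 (SE 0.31) for H19. The ratio of H19 to Igf2 CPM was 20.6 in Control replicate 1 and 11.2 to 12.6 in the other 3 libraries, and differed between the groups by −0.33 on the log2 scale, within the replicate SD of 0.44. With Control replicate 1 left out the difference turned to 0.11, and with Control replicate 2 left out it became −0.77.

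Grb10 encodes an adaptor that damps insulin and IGF receptor signalling. It measured 10.7 and 13 CPM in Control and 14 and 18 CPM in Trim33-deficient libraries, narrowly without overlap, with a log2 fold change of 0.43 (SE 0.25, edgeR adjusted p of 0.687). Plagl1, a zinc finger transcription factor that regulates other imprinted genes and restrains proliferation, measured 416 and 1547 CPM in Control and 862 and 2093 CPM in Trim33-deficient libraries. Its highest library was 5.04 times its lowest, and replicate 2 exceeded replicate 1 in both groups, 3.72 times in Control and 2.43 times in Trim33-deficient bodies. The log2 fold change of 0.59 (SE 0.74) was thus smaller than its spread, while the within-pair differences were 1.05 and 0.44. Left-out libraries moved it between −0.19 and 1.85.

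The IGF axis outside imprinting, a list of 15 genes for ligands, receptors, binding proteins and RNA-binding partners, had 6 log2 fold changes above 0 and 9 below, with a median of −0.03, and edgeR called none while DESeq2 called 2, against 0.989% of all genes tested. Igfbp1, a secreted IGF-binding protein typical of liver, fell from 17.9 and 9.18 CPM to 0.361 and 2.05 CPM (log2 fold change −3.51, DESeq2 adjusted p of 0.00456). Igfbp7, a binding protein related to that family, rose from 8.81 and 7.52 CPM to 17.9 and 30.0 CPM (log2 fold change 1.55, DESeq2 adjusted p of 0.0211). Igfbp2 measured 760 and 551 CPM against 401 and 399 CPM without passing (DESeq2 adjusted p of 0.100). The fall of Igfbp1 went with that of the visceral endoderm markers given above, and their part in it was not tested.

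The Dlk1-Meg3 cluster on chromosome 12 holds the paternal gene Dlk1, which encodes a transmembrane protein of the Notch ligand type, and the maternal non-coding RNAs Meg3, Rian and Mirg, which host small nucleolar RNAs and microRNAs. Dlk1 measured 90.1 and 153 CPM in Control and 120 and 213 CPM in Trim33-deficient libraries (log2 fold change 0.45, SE 0.38). Meg3 measured 605 and 1818 CPM in Control and 746 and 1338 CPM in Trim33-deficient libraries (−0.22, SE 0.59). Rian ran in parallel at 351, 864, 517 and 758 CPM in the order Control replicates 1 and 2, Trim33-deficient replicates 1 and 2. Mirg did so at 34.0, 87.2, 50.3 and 77.6 CPM. All 4 genes were lower in replicate 1 than in replicate 2 of both groups, and their groups overlapped. Rian and Mirg had log2 fold changes of 0.07 and 0.08.

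The maternal RNAs of this cluster kept nearly constant proportions while their levels varied 2.46-fold to 3.01-fold. The ratio of Mirg to Rian CPM was 0.0968 and 0.101 in Control and 0.0972 and 0.102 in Trim33-deficient bodies, a highest over lowest ratio of 1.06. The ratio of Rian to Meg3 spanned 1.46-fold and that of Mirg to Meg3 1.40-fold. Against the paternal gene, the ratio of Meg3 to Dlk1 was 6.71 and 11.9 in Control and 6.23 and 6.28 in Trim33-deficient bodies. The log2 difference of that ratio was −0.51, larger than the replicate SD of 0.41, but Control replicate 1 lay near the Trim33-deficient values and the difference was −0.10 without Control replicate 2. Ratios between genes of 1 class were computed after the values had been seen.

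In the Kcnq1ot1 cluster on distal chromosome 7, the paternal non-coding RNA Kcnq1ot1 silences neighbours that are expressed from the maternal copy. Kcnq1ot1 was the steadiest of the tested genes, at 12.6 and 12.3 CPM in Control and 13.1 and 12.6 CPM in Trim33-deficient libraries, with a log2 fold change of 0.04 (SE 0.21) and a highest over lowest value of 1.06. Its neighbours ran from 3.48-fold to 7.6-fold between libraries. Cdkn1c, which encodes the cyclin-dependent kinase inhibitor p57, measured 76.6 and 19.5 CPM in Control and 39.2 and 39.8 CPM in Trim33-deficient libraries. Both Trim33-deficient values fell between the Control values, and the pairs went opposite ways by −0.96 and 1.02 on the log2 scale. The log2 fold change was −0.29 (SE 0.63).

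Phlda2, a restraint on placental growth, followed Cdkn1c at 18.7 and 5.37 CPM in Control and 12 and 9.82 CPM in Trim33-deficient libraries. The ratio of Phlda2 to Cdkn1c stayed between 0.244 and 0.308. Slc22a18, a gene for a transporter-like membrane protein that lies beside Phlda2, measured 3.71 and 0.488 CPM in Control, the latter from 5 counts, and 2.45 and 2.14 CPM in Trim33-deficient libraries. Ascl2, a transcription factor gene required for the spongiotrophoblast of the placenta, measured 15.5 and 2.93 CPM in Control and 3.82 and 2.22 CPM in Trim33-deficient libraries. Ascl2 had the most negative log2 fold change of the 31, −1.61 (SE 0.85, edgeR adjusted p of 0.678), carried by Control replicate 1: without that library it was 0.05. The ratio of Ascl2 to Cdkn1c was 0.203 and 0.150 in Control and 0.0976 and 0.0558 in Trim33-deficient bodies, so these 2 neighbours did not keep a constant proportion. The ratio of Cdkn1c to Kcnq1ot1 was 6.08 and 1.59 in Control and 3.0 and 3.17 in Trim33-deficient bodies, a log2 difference of −0.011 against a replicate SD of 0.97.

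These 4 maternal neighbours of Kcnq1ot1 were highest in Control replicate 1, in contrast to most imprinted genes, and were joined there by Peg10 and Peg12. Trophoblast markers had 5 of 7 members highest in the same library, against 31.7% of all genes tested, and the other 2, Hand1 and Cdx2, were lowest there. Among the 5 were Tpbpa, by a narrow margin at 25.04 CPM against 24.74 CPM in Trim33-deficient replicate 1, Tfap2c at 140 CPM against 28.2 to 42.1 CPM and Elf5 with 32 counts against 2 to 5. The sum of the 7 markers did not follow, at 358 and 477 CPM in Control and 350 and 462 CPM in Trim33-deficient libraries, since Hand1 makes up much of it. No trophoblast marker was at 0 in all libraries. The part of such cells in the levels of Cdkn1c, Phlda2, Ascl2 and Slc22a18 was not tested.

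**Figure D3:**
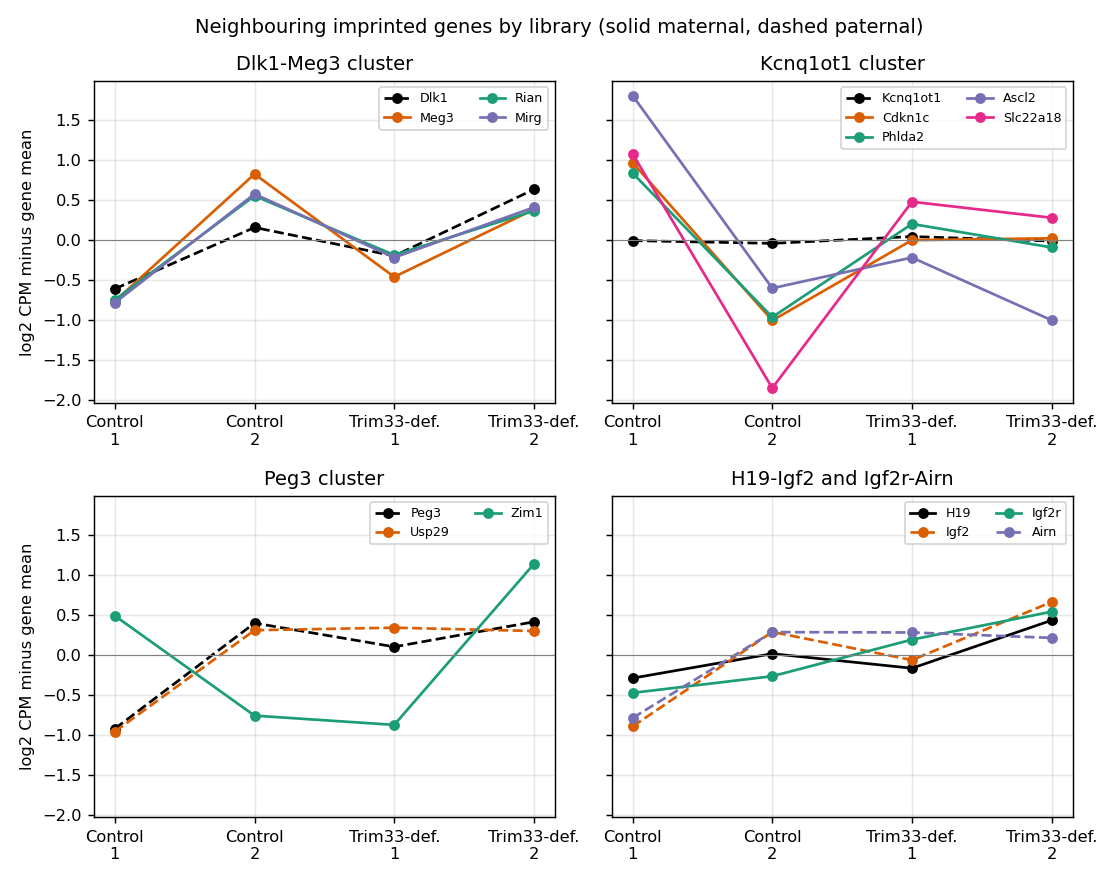
Log2 CPM minus the gene's mean over the 4 libraries for genes of 5 imprinted clusters (solid lines maternal, dashed paternal genes), by library. Meg3, Rian and Mirg run together, the maternal neighbours of the flat Kcnq1ot1 are highest in Control replicate 1, and Peg3 and Usp29 run together with their low point in Control replicate 1.

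The Peg3 cluster on proximal chromosome 7 contains Peg3 and Usp29, a pair of paternal genes whose annotated starts lie 147 bases apart in opposite directions, and the maternal zinc finger gene Zim1. Usp29 encodes a protein of the ubiquitin-specific protease family. Peg3 measured 1134 and 2830 CPM in Control and 2304 and 2860 CPM in Trim33-deficient libraries (log2 fold change 0.38, SE 0.46). Usp29 measured 19.8 and 47.6 CPM in Control and 48.6 and 47.2 CPM in Trim33-deficient libraries (0.51, SE 0.42). In both genes Control replicate 1 was less than the other 3 libraries, which were alike, and without it the log2 fold changes were −0.14 and 0.01 in edgeR. The ratio of Usp29 to Peg3 stayed between 0.0165 and 0.0211, although Zim3 on the opposite strand overlaps 14.3% of the exon bases of Usp29. Zim1 had 12 and 4 counts in Control and 5 and 17 counts in Trim33-deficient libraries, at which depth no difference was detectable.

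The Snrpn-Ndn region of chromosome 7, the mouse counterpart of the Prader-Willi syndrome region, contributed 4 paternal genes, of which 3 were tested, and these did not move alike. Ndn and Magel2 encode proteins of the MAGE family. Ndn measured 87.4 and 166 CPM in Control and 186 and 200 CPM in Trim33-deficient libraries, without overlap, with a log2 fold change of 0.61 (SE 0.32) and an adjusted p of 0.677 in edgeR and 0.817 in DESeq2. Magel2 measured 12.8 and 19.8 CPM in Control and 17.7 and 10.5 CPM in Trim33-deficient libraries (−0.20, SE 0.37). Peg12 measured 84.8 and 74.3 CPM in Control and 75.3 and 56.3 CPM in Trim33-deficient libraries (−0.27, SE 0.18), with values lower in both pairs. The ratio of Peg12 to Ndn spanned 3.46-fold over the libraries and that of Magel2 to Ndn 2.80-fold.

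Peg10 and Sgce on chromosome 6 are paternal genes whose annotated starts lie 99 bases apart in opposite directions. Sgce encodes epsilon-sarcoglycan, a membrane glycoprotein. Peg10 measured 5040 and 3735 CPM in Control and 3813 and 4387 CPM in Trim33-deficient libraries (−0.10, SE 0.23). Sgce measured 118.9 and 124.6 CPM in Control and 104.4 and 118.5 CPM in Trim33-deficient libraries and was the sole gene of the 31 lower in both Trim33-deficient libraries than in both Control libraries, by a log2 fold change of −0.13 (SE 0.12, edgeR adjusted p of 0.778). Mest measured 2837 and 4649 CPM in Control and 4669 and 3981 CPM in Trim33-deficient libraries (0.21, SE 0.29), so that 3 libraries lay close together above Control replicate 1. Copg2, a coat protein gene on the opposite strand, overlaps 23.1% of the annotated exon bases of Mest, and the sources used here do not give the strand setting of the counting.

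Among genes that stand alone, Impact, a translation regulator that restrains the amino acid sensor GCN2, measured 250 and 288 CPM in Control and 298 and 359 CPM in Trim33-deficient libraries, without overlap. The log2 fold change of 0.29 (SE 0.15) had an adjusted p of 0.674 in edgeR. Slc38a4 measured 603 and 777 CPM against 702 and 1034 CPM, a log2 fold change of 0.33 (SE 0.25). Zdbf2, a gene whose imprint arises from an upstream transcript in the early embryo, measured 121 and 179 CPM against 162 and 228 CPM, a log2 fold change of 0.38 (SE 0.26). Both genes were higher in each pair while their groups overlapped. Gnas measured 1415 and 2374 CPM against 2053 and 2583 CPM, 0.29 (SE 0.30) on the log2 scale, and the counts do not separate its maternal, paternal and biallelic transcripts. Nnat measured 530 and 594 CPM against 533 and 696 CPM, a log2 fold change of 0.13 (SE 0.18). Zrsr1, an RNA splicing gene that lies within Commd1, was flat apart from Trim33-deficient replicate 2, at 25.1, 25, 24.6 and 28.4 CPM. On the opposite strand, Commd1 overlaps 9.17% of the annotated exon bases of Zrsr1, and Nespas 8.83% of those of Gnas. Nap1l5, a small gene of the nucleosome assembly protein family, had 27 and 13 counts in Control and 36 and 10 counts in Trim33-deficient libraries.

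The 2 Control libraries differed widely in these genes. In 24 of the 31 (77.4%), the log2 gap between the 2 Control libraries exceeded the log2 fold change between the groups, against 57.8% of all genes tested. Control replicate 1 was the lowest library for 19 of the 31 genes, against 31.3% of all genes, and Trim33-deficient replicate 2 was the highest for 15, against 28.4%. Of those lowest in Control replicate 1, 12 were paternal and 6 maternal. The same 2 libraries had the lowest and highest summed mesenchyme and smooth muscle markers.

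In 9 of the 31 genes (29.0%), the 4 libraries stood in exactly the order of that marker sum: Control replicate 1, Trim33-deficient replicate 1, Control replicate 2 and Trim33-deficient replicate 2, from low to high. This order was held by 8.65% of all genes tested. The 9 genes were Dlk1, Gnas, H19, Igf2, Nnat, Peg3, Plagl1, Slc38a4 and Zdbf2, of which 7 are paternal, 1 is maternal and Gnas is mixed. The order was looked for after the values had been seen, and it rests on 4 libraries. It is the order of a sum: singly, the markers Col1a1, Col3a1 and Pdgfra held it, while Acta2, Tagln, Col1a2 and Twist1 did not. Nor is the order particular to mesenchyme. The summed erythroid markers held it too, at 1.24 and 122 CPM in Control replicates 1 and 2. In Trim33-deficient replicates 1 and 2 they summed to 31.4 and 204 CPM. The sums of the other marker lists did not hold it. In this order both the marker sum and the 9 genes are higher in the Trim33-deficient library of each numbered pair, while the groups overlap. The part of mesenchymal or erythroid cells in these levels was not tested.

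**Figure D4:**
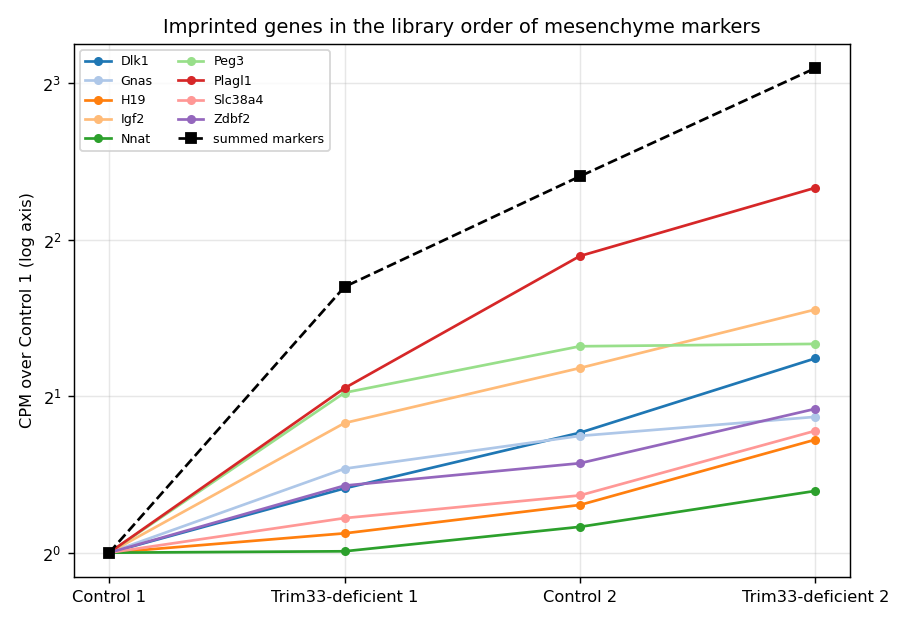
CPM relative to Control replicate 1 on a log axis for the 9 imprinted genes whose libraries stand in the order of the summed mesenchyme and smooth muscle markers (dashed). Every line rises from left to right because that order chose the genes, with Plagl1 reaching 5.04 times its lowest value and Nnat 1.31 times.

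A list of 18 genes for imprint maintenance and for DNA methylation, the Tet and Dnmt3 genes included, had none called by either tool. Their log2 fold changes were above 0 in 4 and below 0 in 14, with a median of −0.15. The groups separated with lower Trim33-deficient values in 7 of the 18 (21.4% of all genes) and with higher values in 1 (19.3% of all genes). At an unadjusted edgeR p under 0.05, none was higher (3.06% of all genes) and 4 were lower (4.78% of all genes): Tet1 at −0.46, which oxidises 5-methylcytosine, the de novo DNA methyltransferase gene Dnmt3b at −0.36, Dppa3 at −1.28, which protects methylation in the zygote, and the histone H3K9 methyltransferase gene Ehmt2 at −0.28. Their lowest adjusted p was 0.595 in edgeR. Pluripotency markers, Dppa3 among them, are expressed in stem cells, as are Tet1 and Dnmt3b. The markers summed to 350 and 197 CPM in Control and 178 and 165 CPM in Trim33-deficient libraries. Sox2 alone made up 213 and 120 CPM of this in Control and 124 and 79.3 CPM in Trim33-deficient libraries. Nanog and Dppa3 were lower in both Trim33-deficient libraries than in both Control libraries. In Pou5f1, Zfp42, Esrrb and Sox2 the groups overlapped. The part of these markers was not tested. Trim28 measured 1039 and 1058 CPM in Control and 1104 and 978 CPM in Trim33-deficient libraries, and Dnmt1, the maintenance methyltransferase gene, 432 and 405 CPM against 434 and 407 CPM. Zfp57 measured 64.6 and 96.7 CPM against 56.3 and 74.7 CPM. Trim28 and Dnmt1 thus lay within a log2 fold change of −0.01 to 0.01, with SEs of 0.14 and 0.11.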

How the data were processed

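Total RNA of 2 Control and 2 Trim33-deficient libraries was sequenced as standard Illumina libraries, per the labels' protocols. STAR, HTSeq, DESeq and the build mm9 are named, without versions, in the submitters' processing notes. Each deposited library file gives raw, unnormalised counts by gene symbol. Reads assigned to no feature (55.5% to 56.0%) and ambiguous reads (0.172% to 0.200%) stayed out of library sizes. The sources used here give neither the selection of RNA nor the strand setting. The authors' deposited table gives log2 fold changes, ratios and p-values for 84 genes, the highest adjusted p being 0.0496. It was used to look up members only.

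Counts were filtered with filterByExpr, TMM-scaled and tested two-sided with edgeR 4.0.16 (quasi-likelihood, Benjamini-Hochberg adjustment over 14259 genes, threshold 0.05) in R 4.3.3. DESeq2 1.42.0, voom in limma 3.58.1, edgeR's likelihood ratio test, other scalings and filters, the replicate block and each library left out were alternatives. Scripts were tested on simulated data. The labels speak of independent pairs, so numbers were taken as pairs; over all genes tested, the deviations of same-numbered libraries from their group means had a Pearson correlation of 0.236 and a Spearman correlation of 0.207. Differences within pairs used log2 CPM with a prior count of 2. Differences of ratios used log2 ratios of the counts within each library, without a prior count. Exon lengths and positions are from the GENCODE annotation of GRCm38, sequences from RefSeq on GRCm38.p6, and no coordinate was converted. Every imprinted gene is named. Of each other list the called genes and the 3 with the smallest p were named by rule, and further names were chosen after their values were seen. Members and lists were chosen with earlier results of these data known.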

Additional observations from a re-analysis of the deposited data

How the results depend on the processing

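With 2 libraries a group, 1 library decides most directions, while depth limits Snrpn, Zim1, Nap1l5 and Slc22a18, which have libraries with 10 or fewer counts. Over all genes, edgeR's quasi-likelihood test called 2 genes, the likelihood ratio test 169, DESeq2 141, DESeq2 with the replicate block 187, voom 0 and a filter of at least 1 count 14, and with 1 library left out the calls ran from 0 to 676. Imprinted genes called were 0 in the main test, 1 (Plagl1) in DESeq2 with the replicate block, 0 in edgeR with the replicate block, where Igf2r had a log2 fold change of 0.74, and 0 to 6 with 1 library left out. The imprinted genes called with 1 library left out were Ascl2, Igf2, Ndn, Peg3, Rian and Usp29. All came without Control replicate 2 in DESeq2, the run that also gave the most calls over all genes. The cause was not tested. With 1 library left out, where a group of 1 library borrows its spread from the other group, the median log2 fold change ran from 0.027 to 0.54 for all members, from −0.23 to 0.47 for maternal and from 0.051 to 0.54 for paternal genes, and the count above 0 from 16 to 24. With 1 library or 1 numbered pair left out, the log2 difference of the ratio of H19 to Igf2 ran from −0.77 to 0.11, of Meg3 to Dlk1 from −0.92 to −0.10, of Cdkn1c to Kcnq1ot1 from −1.02 to 1.0, of Igf2r to Airn from −0.40 to 0.88 and of Zim1 to Peg3 from −2.39 to 1.88. Scaling moved the median of all genes by at most 0.034. Directions reversed for Nap1l5 in voom (−0.11) and with the replicate block (−0.064 in edgeR, −0.10 in DESeq2), for Cdkn1c with the block (0.00058 in edgeR, 0.025 in DESeq2) and for Phlda2 in voom (0.036) and with the block (0.083 in edgeR, 0.11 in DESeq2). With 1 library left out, log2 fold changes that reversed ran from −0.043 to 1.05 for Airn, −2.34 to 0.047 for Ascl2, −0.95 to 1.01 for Cdkn1c, −0.022 to 0.90 for Dlk1, −0.039 to 0.73 for Gnas, −0.036 to 0.58 for H19, −0.63 to 0.16 for Magel2, −0.81 to 0.80 for Meg3, −0.11 to 0.62 for Mest, −0.45 to 0.93 for Mirg, −0.96 to 0.63 for Nap1l5, −0.075 to 0.32 for Nnat, −0.29 to 0.13 for Peg10, −0.14 to 1.20 for Peg3, −0.77 to 1.02 for Phlda2, −0.19 to 1.85 for Plagl1, −0.44 to 0.88 for Rian, −0.68 to 2.23 for Slc22a18, −0.87 to 1.21 for Zim1 and −0.026 to 0.19 for Zrsr1. The other 11 tested members, Igf2r, Igf2, Usp29, Sgce, Grb10, Kcnq1ot1, Ndn, Peg12, Impact, Slc38a4 and Zdbf2, kept their direction in every alternative run.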

Other observations

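A second list of 34 imprinted genes outside the 32, of which 27 were tested, had 19 log2 fold changes above 0 and 8 below, with a median of 0.17, and neither tool called any of them. Their groups separated with higher Trim33-deficient values in 7 of the 27, against 19.3% of all genes, and with lower values in 2, against 21.4%. The smallest p belonged to Tnfrsf23, a decoy receptor gene of the distal chromosome 7 region, at 3.25 and 1.56 CPM in Control and 7.21 and 7.94 CPM in Trim33-deficient libraries, a log2 fold change of 1.64 (SE 0.45). Osbpl5, an oxysterol-binding protein gene of the same region, measured 24.7 and 26.6 CPM against 34.3 and 57.0 CPM (0.83, SE 0.28). Mcts2, a gene within an intron of H13, measured 16.8 and 16.3 CPM against 21.1 and 21.4 CPM (0.36, SE 0.17). The lowest DESeq2 adjusted p of the list was 0.282, so none of these passed.

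The following genes were chosen after their values were seen. Sfmbt2, a Polycomb group gene expressed from the paternal copy in extraembryonic tissue, measured 252 and 47.5 CPM in Control and 87.3 and 95.1 CPM in Trim33-deficient libraries, so that both Trim33-deficient values lay between the Control values, as for Cdkn1c. Copg2, which overlaps Mest on the opposite strand, kept a ratio to Mest CPM of 0.329 and 0.311 in Control and 0.304 and 0.309 in Trim33-deficient bodies, a highest over lowest ratio of 1.08. Whether reads of Mest were counted for Copg2 was not tested.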
